A study of Mus musculus with 4 samples.

Results

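The genes described here are 10 transcripts of cytotoxic lymphocytes, *Gzma*, *Gzmb*, *Prf1*, *Nkg7*, *Ifng*, *Ccl5*, *Xcl1*, *Fasl*, *Klrd1* and *Ncr1*, taken by name from the 32285 genes counted in single cells of mouse fracture callus. They were followed in T cells (at least 2 UMIs of *Cd3d* and *Cd3e* together), in NK-like cells (at least 2 UMIs of *Nkg7* and none of *Cd3d*, *Cd3e* or *Cd3g*) and in other cells. A UMI is a molecular identifier that counts 1 captured transcript. Of 31617 cells with at least 1000 UMIs, at least 500 genes and at most 15% mitochondrial UMIs, 500 were T cells, 702 were NK-like cells and 30161 were other cells. The remaining 254, with 1 UMI of *Cd3d* or *Cd3e* or with *Cd3g* only, were kept as a class of their own, which held 3.32% to 6.79% of the UMIs of each member.

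The study asked how systemic inflammation alters the cells of a healing fracture. Wild-type C57BL/6J mice, 3 months old, carried a tibial fracture and received either vehicle (control) or K/BxN serum, whose autoantibodies cause an arthritis that models rheumatoid arthritis (RA). Callus was collected at 4 or 7 days post-fracture (dpf), which gives the libraries control_4d, RA_4d, control_7d and RA_7d. Each library came from 1 pool of mice, with 4 mice per pool in the labels and 3 in the methods of the study, and there is 1 library per condition. No comparison between conditions therefore has a replicate, no p-value is given, and treatment, pool and library cannot be told apart. Cells were released by enzymatic digestion and counted by 10x Genomics 3′ sequencing, without sorting for lymphocytes.

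Cytotoxic lymphocytes kill target cells mainly by releasing granules in which perforin opens the target membrane to granzymes, serine proteases that trigger cell death. They also kill through Fas ligand and signal to other leukocytes through interferon-γ and chemokines. NK cells carry this machinery without prior antigen contact, whereas CD8 T cells acquire it when they are activated.

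The libraries held 5896 to 10306 barcodes and kept 5559 to 9579 cells with 129557346 to 181108333 UMIs. Median depth was 15102 to 17234 UMIs per cell. T cells were shallower, with medians of 5660 UMIs in control_4d, 8460 in RA_4d, 5755 in control_7d and 6986.5 in RA_7d. Between 10 and 31 barcodes were shared by any 2 libraries, and 1 of them was a lymphocyte in both. Levels are given as CPM, the UMIs of a gene in each 1000000 UMIs of all cells of a class in a library. Intervals in parentheses are 95% exact Poisson intervals for levels, exact Clopper-Pearson intervals for shares of cells and exact conditional intervals for ratios of counts. They cover counting error only and treat each UMI or cell as independent.

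Promoters are printed for 4 members, because the RUNX letters TGTGGT or ACCACA (the same letters on the other strand) lay in the 250 bases before a transcript start of 6 of the 8 members with an entry, against 14.0% of 32851 promoters. RUNX factors, among them Runx3, act in NK and CD8 T cell development. The T-box letters GGTGTGA were found in 1 of the 8 (3.33% of all promoters), the ETS letters GGAAGT in 3 (19.7%) and the STAT letters TTCNNNGAA in 2 (7.02%), with both strands searched. Some windows were shorter, such as 247 bases for *Prf1*. The sequences are from RefSeq on GRCm38.p6 and run 5′ to 3′ on the strand of the gene, and capitals mark RUNX and ETS letters. *Gzma* lay at chr13:113100982-113101231 (minus strand), *Gzmb* at chr14:56262335-56262584 (minus), *Prf1* at chr10:61297586-61297832 (plus) and *Ncr1* at chr7:4337465-4337714 (plus).
Gzma: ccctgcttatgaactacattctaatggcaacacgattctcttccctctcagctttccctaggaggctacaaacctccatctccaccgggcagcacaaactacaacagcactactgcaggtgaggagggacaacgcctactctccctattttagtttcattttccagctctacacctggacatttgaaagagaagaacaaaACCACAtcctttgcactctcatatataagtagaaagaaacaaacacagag
Gzmb: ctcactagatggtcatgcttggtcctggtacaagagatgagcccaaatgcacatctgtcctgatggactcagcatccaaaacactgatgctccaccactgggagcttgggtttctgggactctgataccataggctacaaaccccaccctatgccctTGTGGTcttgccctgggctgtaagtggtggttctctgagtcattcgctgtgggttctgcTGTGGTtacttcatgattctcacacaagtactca
Prf1: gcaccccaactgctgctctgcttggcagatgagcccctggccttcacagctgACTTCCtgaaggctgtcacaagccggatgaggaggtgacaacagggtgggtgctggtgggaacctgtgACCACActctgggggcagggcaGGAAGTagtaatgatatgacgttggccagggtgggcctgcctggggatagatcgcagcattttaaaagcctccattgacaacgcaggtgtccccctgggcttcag
Ncr1: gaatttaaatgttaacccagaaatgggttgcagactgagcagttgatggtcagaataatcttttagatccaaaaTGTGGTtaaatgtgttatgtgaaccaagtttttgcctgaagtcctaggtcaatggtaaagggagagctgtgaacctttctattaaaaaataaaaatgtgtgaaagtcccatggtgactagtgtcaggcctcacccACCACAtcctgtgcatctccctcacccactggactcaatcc
*Gzmb* and *Ncr1* each held 2 RUNX matches and *Gzma* and *Prf1* 1 each, and *Prf1* also held 2 ETS matches. A match of letters is a description of the window and was not tested as a binding site. *Ccl5* and *Klrd1* were not searched.

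The NK-like gate of RA_4d stood apart from the other 3, and this bears on every value that follows. The gate held 73 cells in control_4d, 238 in RA_4d, 145 in control_7d and 246 in RA_7d, with median depths of 8432, 25677.5, 5972 and 6368.5 UMIs. *Nkg7*, a granule membrane protein on which the gate rests, was also counted in cells with transcripts of granulocyte precursors: 171 of the 702 NK-like cells held at least 3 UMIs of a neutrophil list (*Csf3r*, *Mmp9*, *Cxcr2*, *Retnlg*, *Mpo* and *Elane*). They were 16 cells in control_4d (21.9% of the gate), 132 in RA_4d (55.5%), 11 in control_7d (7.59%) and 12 in RA_7d (4.88%), and they were deep, with median UMIs of 24400 to 39534.5. *Elane* and *Mpo*, granule proteins of early neutrophils, together gave 36128 UMIs in those 132 cells of RA_4d. The other 9 members gave only 112 UMIs there, against 7625 in the 103 remaining NK-like cells of the same library.

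Granulocyte-free NK-like cells, with fewer than 3 UMIs of the neutrophil list and of a mast cell list, were therefore described beside the whole gate, a split chosen after the data had been seen. They numbered 57 in control_4d, 103 in RA_4d, 134 in control_7d and 234 in RA_7d. At least 1 UMI of *Ncr1*, *Klrb1c* or *Klre1*, receptors of NK cells, was found in 55 of 57, 90 of 103, 128 of 134 and 230 of 234 of them. By this measure the NK label held for the granulocyte-free cells and not for the RA_4d gate as a whole, of which 38.7% had such a receptor. Many granulocyte-free cells also held at least 3 UMIs of a macrophage or dendritic list. They were 20 of 57 in control_4d, 45 of 103 in RA_4d, 42 of 134 in control_7d and 91 of 234 in RA_7d. Only 16 of the 702 cells lay within 2 to 4 UMIs of the neutrophil list, near the threshold of 3.

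**Figure D1:**
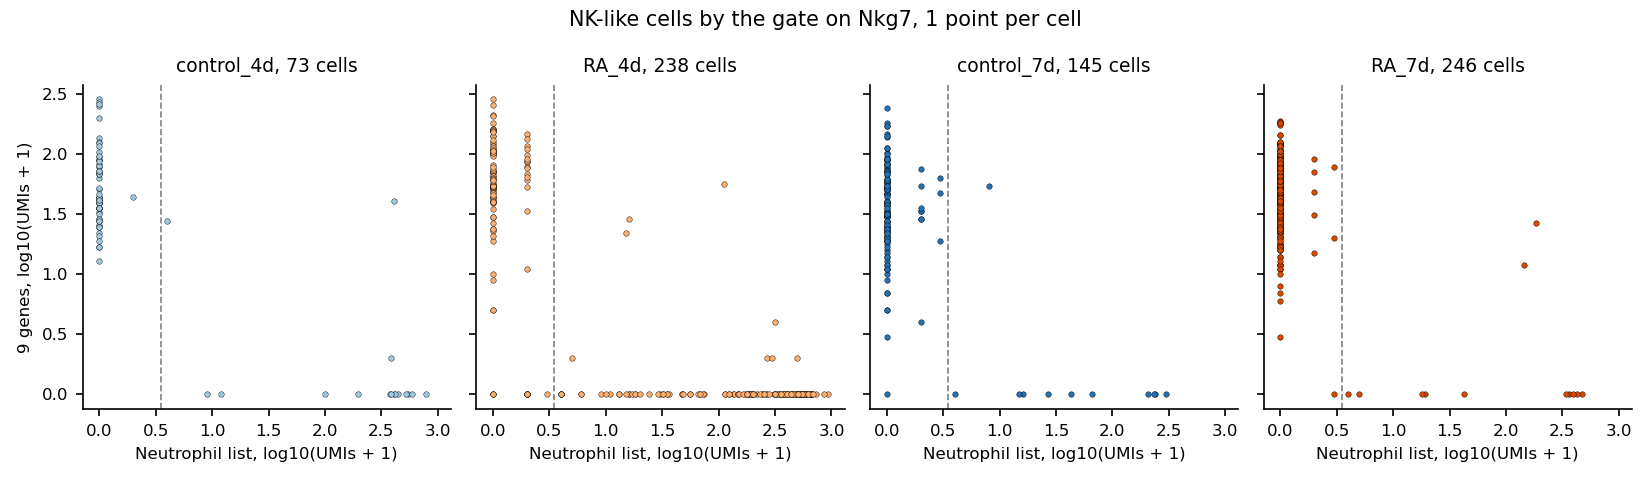
Each point is 1 NK-like cell, with the UMIs of the neutrophil list on the x axis and of the 9 members other than Nkg7 on the y axis, both as log10(UMIs + 1); the dashed line is the threshold of 3 neutrophil UMIs. In RA_4d 132 of 238 cells lie to the right of the line, nearly all at 0 on the y axis, against 12 of 246 in RA_7d.

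As shares of all kept cells, granulocyte-free NK-like cells were 0.799% (0.606–1.03) in control_4d, 1.85% (1.51–2.24) in RA_4d, 1.43% (1.20–1.70) in control_7d and 2.44% in RA_7d. Their share was 2.32 times (1.66–3.26) the control at 4 dpf and 1.70 times (1.37–2.12) at 7 dpf. T cells were 1.16%, 2.07%, 1.63% and 1.57% in the same order, 1.78 times (1.33–2.39) the control at 4 dpf and 0.963 times (0.763–1.21) at 7 dpf. The RA libraries were thus higher in granulocyte-free NK-like cells at both times, and in T cells at 4 dpf. The size at 4 dpf depended on the gate. Cells gated by *Ncr1*, *Klrb1c* or *Klre1* instead were 164 of 7135 in control_4d and 161 of 5559 in RA_4d. At 7 dpf they were 212 of 9344 in control_7d and 377 of 9579 in RA_7d. Of the 164 and 161, 112 and 88 held at least 3 UMIs of a macrophage or dendritic list.

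Granulocyte-free NK-like cells held 46.4% of the UMIs of the 9 members other than *Nkg7* and T cells 15.2%, with 32.2% and 9.44% in control_4d, the lowest of the 4 libraries. For 6 members the NK-like share was over 50%. Over the 4 libraries, granulocyte-free NK-like cells held 87.5% of *Gzma* UMIs, 78.7% of *Ncr1*, 72.3% of *Prf1*, 65.0% of *Xcl1*, 56.4% of *Ifng* and 53.3% of *Fasl*. T cells held 3.57%, 2.46%, 5.28%, 18.4%, 21.5% and 11.9% of the same 6 genes. Apart from the gated *Nkg7*, T cells held the largest share of *Gzmb*, at 22.4%, and the smallest of *Ncr1*.

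The exceptions were *Nkg7*, *Gzmb*, *Ccl5* and *Klrd1*. Granulocyte-positive NK-like cells held 28.8% of *Nkg7* UMIs, and 55.6% in RA_4d. Of *Gzmb*, which mast cells and basophils also make, 8.38% lay in mast-gated cells and 13.9% in 3 NK-like cells of RA_4d with at least 3 UMIs of the mast list, where 2 cells held 290 UMIs, 286 of them in 1 cell. *Ccl5*, a chemokine that attracts leukocytes, was in dendritic-gated cells (14.8%) and macrophage-gated cells (9.31%) as well as in granulocyte-free NK-like (38.0%) and T cells (19.4%). *Klrd1* (CD94, which pairs with NKG2 receptors) had the lowest share in T cells and the whole NK-like gate together in control_4d, RA_4d and control_7d. These cells held 12.7% of its UMIs in control_4d, 37.5% in RA_4d, 41.4% in control_7d and 62.6% in RA_7d, where the share of *Ccl5* was lower.

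**Figure D2:**
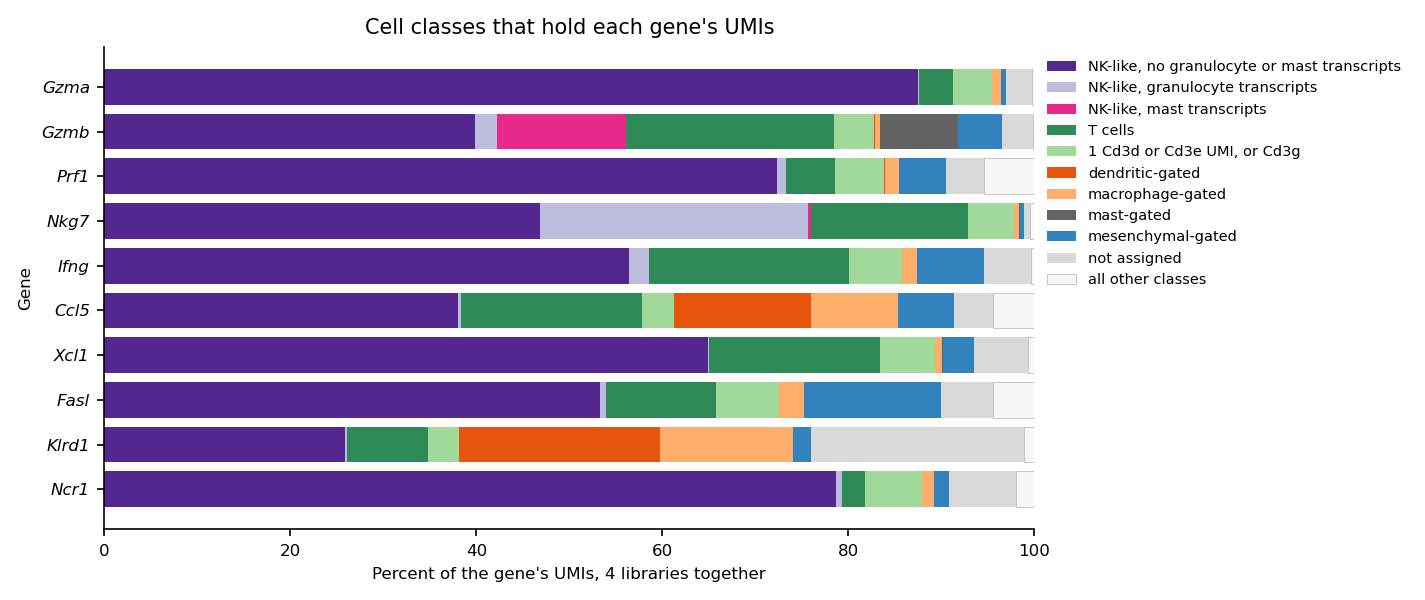
Bars give the percent of each gene's UMIs, 4 libraries together, in each cell class. Gzma is 87.5% in granulocyte-free NK-like cells, Nkg7 has a block of 28.8% in granulocyte-positive cells, and 21.7% of Klrd1 lies in dendritic-gated cells.

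Levels in granulocyte-free NK-like cells were above those in T cells for all 10 genes in each of the 4 libraries, which was so for 11.7% of 12783 genes. *Nkg7* is no finding here, since the gate used it. T cells were not gated on *Nkg7* (57.8% had a UMI), so for genes that go with *Nkg7* the 2 classes were not chosen alike. With NK-like cells gated by *Ncr1*, *Klrb1c* or *Klre1*, the summed ratio of the members other than *Nkg7* ran from 0.953 in control_4d to 1.40 in control_7d. In control_4d 112 of the 164 cells of that gate held macrophage or dendritic transcripts. The ratio of the level in granulocyte-free NK-like cells to that in T cells was 20.4 to 74.8 for *Ncr1*, 13.2 to 59.7 for *Gzma* and 11.4 to 18.6 for *Prf1*. It was 3.49 to 14.1 for *Fasl*, 1.52 to 10.9 for *Xcl1*, 2.69 to 3.22 for *Klrd1*, 1.94 to 3.52 for *Ifng* and 1.71 to 2.85 for *Ccl5*. The smallest ratio was that of *Gzmb* in control_7d, 1.07, where the intervals of the 2 classes overlapped.

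**Figure D3:**
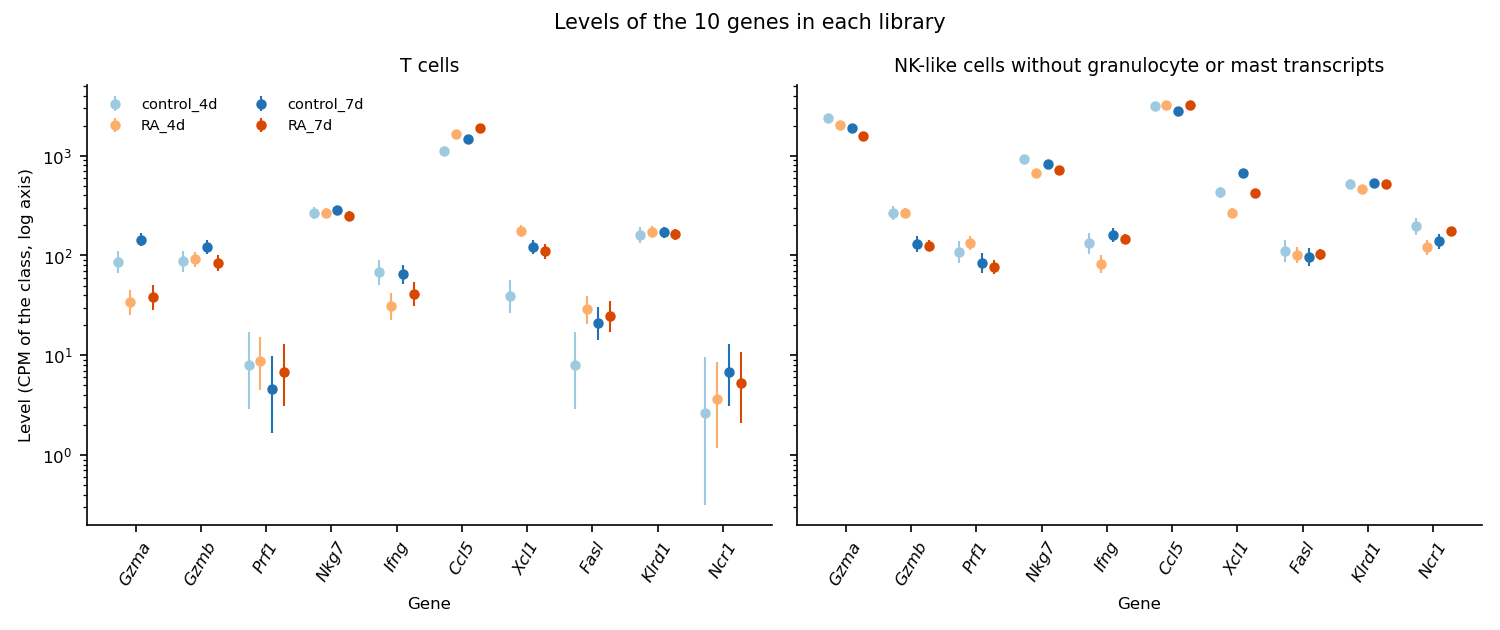
Points give the level of each gene in CPM (log axis) in T cells, left, and granulocyte-free NK-like cells, right, for each library, with 95% Poisson intervals. All 10 genes sit higher on the right, where the cells were gated on Nkg7. Prf1 and Ncr1 stay under 10 CPM in T cells, and Gzma in T cells is 34.1 and 38.4 CPM in the RA libraries against 86.9 and 144 in the controls.

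Among the granule proteins, *Gzma* (ENSMUSG00000023132, chr13:113093825-113100981, GRCm38) encodes granzyme A, a tryptase. Its level in granulocyte-free NK-like cells was 2364 CPM in control_4d, 2035 in RA_4d, 1908 in control_7d and 1571 in RA_7d. The level in RA was 0.861 times (0.805–0.922) the control at 4 dpf and 0.823 times (0.777–0.872) at 7 dpf. In T cells it was 86.9 CPM (67.2–111) in control_4d, 34.1 (25.1–45.4) in RA_4d, 144 (125–166) in control_7d and 38.4 (28.6–50.4) in RA_7d. Both RA libraries lay below both controls in T cells, and their intervals did not overlap those of the controls. Most UMIs of control_4d came from a single cell, however, as given below, and the intervals do not cover this.

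The ratio of RA to control for *Gzma* in T cells was 0.393 (0.264–0.579) at 4 dpf and 0.266 (0.191–0.364) at 7 dpf. Few cells carried it: *Gzma* was counted in 34 of the 500 T cells, and the highest cell of each library held 45 of 66 UMIs in control_4d, 37 of 47 in RA_4d, 50 of 190 in control_7d and 22 of 51 in RA_7d. Without these top cells the ratios were 0.256 (0.108–0.567) and 0.205 (0.133–0.308). The share of T cells with a *Gzma* UMI differed little, at 7.23%, 6.96%, 7.89% and 5.33% in control_4d, RA_4d, control_7d and RA_7d, with overlapping intervals. In mesenchymal-gated cells it was 0.118% to 0.565%.

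*Gzmb* (ENSMUSG00000015437, chr14:56258838-56262260) encodes granzyme B, which cleaves caspases. Granulocyte-free NK-like cells held it at 267 CPM in control_4d (226–313) and in RA_4d (238–299), 130 (109–155) in control_7d and 125 (110–141) in RA_7d. The 2 libraries at 7 dpf lay below the 2 at 4 dpf, at 0.489 times (0.382–0.624) the earlier level in control and 0.469 times (0.395–0.555) in RA. RA and control differed by less than counting error, with ratios of 1.00 (0.819–1.23) at 4 dpf and 0.959 (0.772–1.20) at 7 dpf. Leaving out the cell with the most *Gzmb* in each library gave 0.624 in control and 0.499 in RA for 7 against 4 dpf. The control difference was then under 2-fold and that in RA about 2-fold. In T cells *Gzmb* was 88.2 CPM in control_4d, 91.5 in RA_4d, 122 in control_7d and 85.0 in RA_7d, with a ratio of 0.695 (0.541–0.889) at 7 dpf. The T cell subsets described below differed in this at 7 dpf. Ratios were 0.117 (0.0369–0.287) in CD8 cells, on 5 UMIs in RA_7d and 70 in control_7d, and 0.396 (0.271–0.580) in CD4 cells. γδ cells held 1 UMI in RA_7d and 11 in control_7d. T cells outside these subsets were higher in RA, with 52.2 CPM in control_7d and 107 in RA_7d.

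*Prf1* (ENSMUSG00000037202, chr10:61297833-61304680) encodes perforin. Its level in granulocyte-free NK-like cells was 109 CPM in control_4d, 133 in RA_4d, 84.9 in control_7d and 77.5 in RA_7d, and the intervals of RA and control overlapped at both times. At 7 dpf the RA level was 0.583 times (0.463–0.733) that at 4 dpf, and in control the ratio was 0.777 (0.551–1.10). T cells held 6, 12, 6 and 9 *Prf1* UMIs in control_4d, RA_4d, control_7d and RA_7d, too few to show a difference. *Nkg7* (ENSMUSG00000004612, chr7:43437073-43438249) was 266, 267, 286 and 249 CPM in T cells in that order, and all 4 intervals overlapped.

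A *Gzma*, *Gzmb* or *Prf1* UMI was found in 15.7% of T cells in control_4d, 20.9% in RA_4d, 24.3% in control_7d and 26.7% in RA_7d. With every cell thinned to 1000 UMIs the shares were 7.23%, 8.70%, 10.5% and 8.0%, with overlapping intervals, so no order was detectable at this depth. In granulocyte-free NK-like cells they were 66.7%, 70.9%, 64.2% and 65.0% thinned, and 85.1% to 89.5% unthinned. Mesenchymal-gated cells, which should lack these genes, had at most 0.154% thinned and 0.900% to 1.69% unthinned, at median depths of 24668 to 38323.5 UMIs.

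Of the secreted signals, *Ifng* (ENSMUSG00000055170, chr10:118441046-118445892) encodes interferon-γ, which activates macrophages. Its level in T cells was 68.5 CPM (51.1–89.8) in control_4d, 31.2 (22.6–42.0) in RA_4d, 65.3 (52.3–80.7) in control_7d and 41.4 (31.2–53.8) in RA_7d. The RA level was 0.456 times (0.297–0.696) the control at 4 dpf and 0.633 times (0.443–0.898) at 7 dpf. The T cell subsets described below did not all follow. Ratios at 4 dpf were 0.273 (0.137–0.524) in CD8 and 1.62 (0.631–4.66) in γδ cells. At 7 dpf they were 1.09 (0.515–2.26) and 1.46 (0.673–3.06), and CD4 cells held 1 UMI in control_7d and 15 in RA_7d. T cells outside these subsets had 97.5 CPM in control_7d and 29.6 in RA_7d. Granulocyte-free NK-like cells had 133, 81.9, 159 and 146 CPM in the same order, with ratios of 0.618 (0.451–0.851) and 0.914 (0.750–1.12). The level was thus lower in RA at 4 dpf in both classes, and RA_4d held the lowest level of the 4 libraries in each. The share of T cells with an *Ifng* UMI was not lower, at 9.64% (4.25–18.1) in control_4d and 13.0% (7.49–20.6) in RA_4d. At 7 dpf it was 16.4% in control_7d and 16.7% in RA_7d. The 52 UMIs of control_4d lay in 8 T cells, with 17 in 1 cell, and the 43 of RA_4d in 15, with 11 in 1 cell.

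*Ccl5* (ENSMUSG00000035042, chr11:83525778-83530518) was 1103 CPM in T cells of control_4d, 1648 in RA_4d, 1455 in control_7d and 1909 in RA_7d. The RA level was 1.49 times (1.38–1.62) the control at 4 dpf and 1.31 times (1.24–1.39) at 7 dpf. The T cell subsets described below differed at 4 dpf. The RA level there was 0.821 times (0.738–0.914) the control in CD8 cells and 1.41 times (1.19–1.67) in γδ cells. In granulocyte-free NK-like cells the 4 levels ran from 2817 CPM in control_7d to 3260 in RA_7d, with ratios of 1.03 (0.975–1.09) and 1.16 (1.11–1.21). *Ccl5* was the member with the most UMIs, and so weighed most in sums over the members.

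*Xcl1* (ENSMUSG00000026573, chr1:164931644-164935527) encodes lymphotactin, which attracts dendritic cells that bear Xcr1. Its level was 432 CPM (379–490) in control_4d, 268 (239–300) in RA_4d, 664 (614–718) in control_7d and 423 (395–452) in RA_7d in granulocyte-free NK-like cells. RA was lower at both times, at 0.620 times (0.522–0.738) and 0.636 times (0.574–0.706) the control, and 7 dpf was higher than 4 dpf by 1.54 times (1.33–1.79) in control and 1.58 times (1.38–1.80) in RA.

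In T cells the order of *Xcl1* at 4 dpf was the opposite, with 39.5 CPM (26.6–56.4) in control_4d, 176 (155–200) in RA_4d, 122 (103–142) in control_7d and 110 (92.7–129) in RA_7d. The ratio of RA to control was 4.47 (3.05–6.76) at 4 dpf and 0.903 (0.717–1.14) at 7 dpf. A single cell of RA_4d held 111 of 243 UMIs. Without the top cell of each library the ratio at 4 dpf was 4.93 (2.88–9.06), while that of 7 to 4 dpf in RA moved from 0.623 (0.504–0.767) to 0.983 (0.765–1.26). The levels without those cells were 20.1 CPM in control_4d, 99.2 in RA_4d, 94.0 in control_7d and 97.5 in RA_7d, so that control_4d alone stood apart in all T cells together. This did not hold for γδ cells, described below, where RA to control was 1.30 (0.773–2.24) at 4 dpf and 2.63 (1.72–4.05) at 7 dpf. In CD8 cells the ratios were 29.7 (8.05–248), on 129 and 2 UMIs, and 1.50 (0.789–2.83). T cells outside these subsets had 22.3 CPM in control_4d, 209 in RA_4d, 211 in control_7d and 173 in RA_7d.

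*Fasl* (ENSMUSG00000000817, chr1:161780689-161788495), the ligand of the death receptor Fas, was likewise low in control_4d T cells. Its level was 7.90 CPM (2.90–17.2, 6 UMIs) there, 29.0 (20.7–39.5) in RA_4d, 21.3 (14.1–30.7) in control_7d and 24.8 (17.1–34.9) in RA_7d. The ratio of RA to control was 3.68 (1.55–10.6) at 4 dpf and 1.17 (0.684–2.00) at 7 dpf. In granulocyte-free NK-like cells *Fasl* was 111, 101, 96.2 and 102 CPM in that order, with overlapping intervals throughout. Of its UMIs, 14.7% lay in mesenchymal-gated cells, which held 132 of 898. These cells also held 342678570 of the 653299750 UMIs of all genes, and the level of *Fasl* in them was only 0.348 to 0.408 CPM.

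Of the receptors, *Ncr1* (ENSMUSG00000062524, chr7:4337724-4345164) encodes NKp46, an activating receptor that marks NK cells. Among granulocyte-free NK-like cells it was 197 CPM (162–237) in control_4d, 121 (101–143) in RA_4d, 140 (117–165) in control_7d and 174 (156–193) in RA_7d. The ratio of RA to control was 0.613 (0.473–0.795) at 4 dpf and 1.25 (1.02–1.53) at 7 dpf. The 2 times thus lay on opposite sides of 1, and the difference between them was not tested. T cells held 2 to 9 *Ncr1* UMIs per library.

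*Klrd1* (ENSMUSG00000030165, chr6:129591782-129598775) differed little among libraries in all T cells together and in granulocyte-free NK-like cells. The T cell subsets described below did differ. In CD8 cells the RA level was 0.711 times (0.516–0.984) the control at 4 dpf and 0.626 times (0.434–0.889) at 7 dpf. In γδ cells it was 1.05 times (0.615–1.82) and 3.51 times (2.24–5.55). Over the whole classes *Klrd1* was 161, 173, 171 and 162 CPM in T cells and 517, 466, 530 and 517 CPM in granulocyte-free NK-like cells of control_4d, RA_4d, control_7d and RA_7d. The ratios of RA to control were 0.900 to 1.08 in both classes at both times.

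Counted by a 2-fold rule over genes with at least 20 UMIs in both libraries together, on log2(CPM + 1), 8 members could be assessed in T cells at 4 dpf. *Fasl* and *Xcl1* were at least 2-fold higher in RA, as were 5.25% of 9036 genes, and *Gzma* and *Ifng* at least 2-fold lower, as were 5.51%. The members' median log2 ratio was 0.08, beside 0.01 over all genes. At 7 dpf *Gzma* alone of 8 was lower (background 5.03%) and none was higher (2.54%). From 4 to 7 dpf, *Fasl* and *Xcl1* were higher in control (5.54%) and none lower (3.29%), and none of 9 differed 2-fold in RA (5.14% higher and 4.64% lower).

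In granulocyte-free NK-like cells none of the 10 members differed 2-fold between RA and control, where 5.79% of 7821 genes were higher and 3.89% lower at 4 dpf, and 5.37% and 1.83% of 9808 genes at 7 dpf. The median log2 ratio was -0.18 at 4 dpf, beside 0.00 over all genes, and -0.09 at 7 dpf, beside 0.02. *Gzmb* alone was 2-fold lower at 7 than at 4 dpf, in control and in RA (3.07% of genes in each), and none was higher (6.36% in control and 9.27% in RA). Without the cell with the most *Gzmb* in each library, as given above, the control difference was under 2-fold and that in RA about 2-fold. The 4 comparisons share libraries, so these counts are not independent.

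The whole NK-like gate gave another picture at 4 dpf. There, 8 of 10 members were at least 2-fold lower in RA, beside 5.55% of 11675 genes, and none was higher (7.73%). The exceptions were *Nkg7* and *Gzmb*, with ratios of 0.521 and 0.710, and the 8 ran from 0.189 for *Ifng* to 0.413 for *Prf1*. At 7 dpf none was 2-fold higher (6.73%) or lower (1.51%). From 4 to 7 dpf in RA, 8 of 10 were at least 2-fold higher, beside 19.7% of 12354 genes, and none lower (9.49%). In control *Ifng* and *Xcl1* were higher (7.75%) and none lower (6.3%). For the 9 members other than *Nkg7* summed, the RA to control ratio at 4 dpf was 0.320 (0.308–0.333) in the whole gate and 0.924 (0.889–0.960) in the granulocyte-free cells. At 7 dpf the same values were 0.988 (0.959–1.02) and 0.979 (0.950–1.01).

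**Figure D4:**
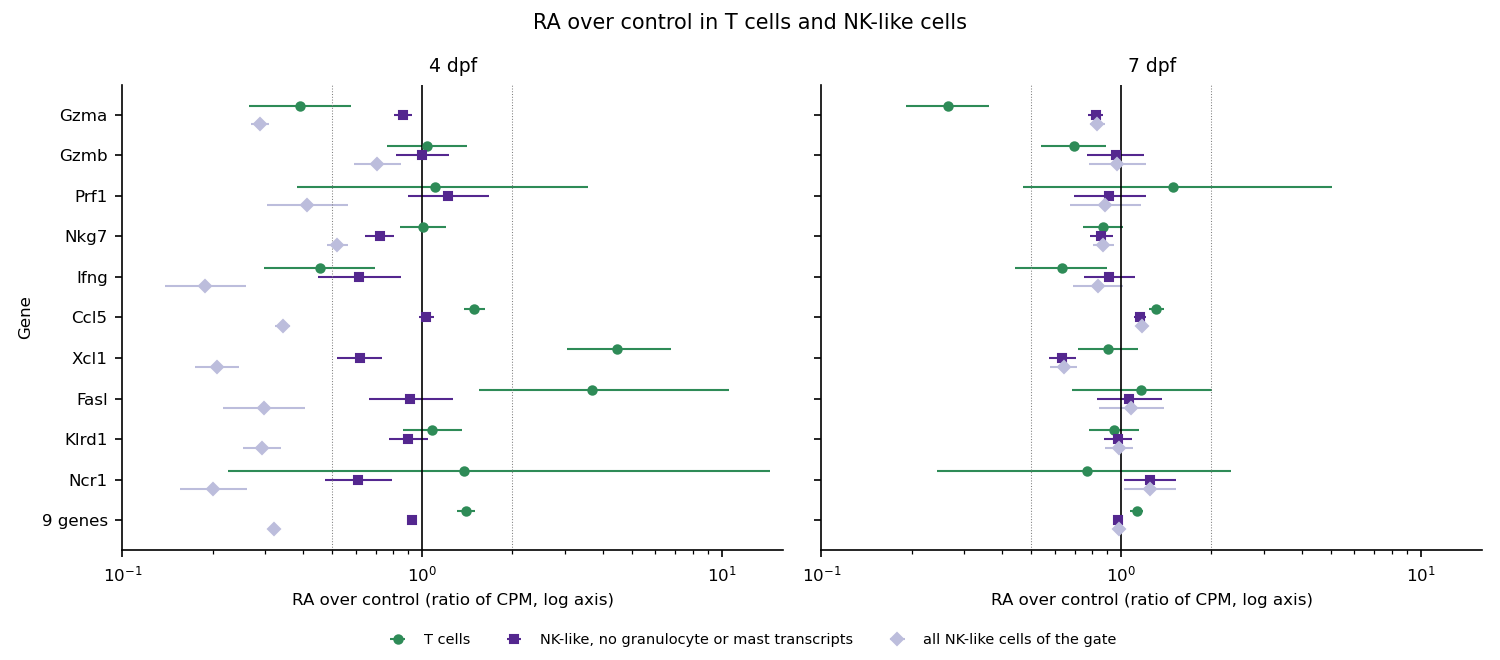
Points give the ratio of the level in RA to that in control (log axis) at 4 dpf, left, and 7 dpf, right, with 95% intervals, for T cells, granulocyte-free NK-like cells and the whole NK-like gate; dotted lines mark 2-fold. At 4 dpf the whole gate lies under 1 for every gene, while the granulocyte-free cells lie between 0.613 and 1.22.

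Over the whole callus, the summed level of the 9 genes was 1.63 times (1.59–1.67) the control in RA at 4 dpf and 1.68 times (1.64–1.71) at 7 dpf. Single genes at 4 dpf ran from 0.798 times for *Klrd1* to 4.89 times (4.26–5.64) for *Gzmb*. Of the *Gzmb* UMIs of RA_4d, 31.4% lay in granulocyte-free NK-like cells, 30.0% in the NK-like cells with mast transcripts, 13.0% in T cells and 9.42% in mast-gated cells. In a sum over all cells, more cells of a type and more RNA per cell cannot be told apart.

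T cells were split by their own receptor transcripts into 152 with CD8 UMIs only, 106 with *Cd4* only, 94 with γδ receptor UMIs and neither, and 148 others. *Gzma* was counted in 11.8% of CD8 cells, 4.26% of γδ cells and 0 of 106 CD4 cells, which allows a share of up to 2.83% by the limit of 3 counts. That limit is on cells with a UMI, not on cells that express the gene. *Xcl1* was in 30.9% of γδ cells (21.7–41.2), 12.5% of CD8 cells (7.70–18.8) and 0 of 106 CD4 cells. *Gzmb* was the exception, with 25.5% of CD4 cells beside 15.8% of CD8 cells and 10.6% of γδ cells. *Klrd1* was in 65.1% of CD8 and 3.77% of CD4 cells, and *Ncr1* in 8.51% of γδ and 0.658% of CD8 cells. These shares are unthinned and pooled over the libraries, the subsets rest on few UMIs of their markers, and median depths were 4326.5 to 9547 UMIs. In mesenchymal-gated cells the shares were 0.411% to 0.887% for *Gzmb*, 0.242% to 0.649% for *Xcl1* and 0.594% to 1.00% for *Klrd1*.

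**Figure D5:**
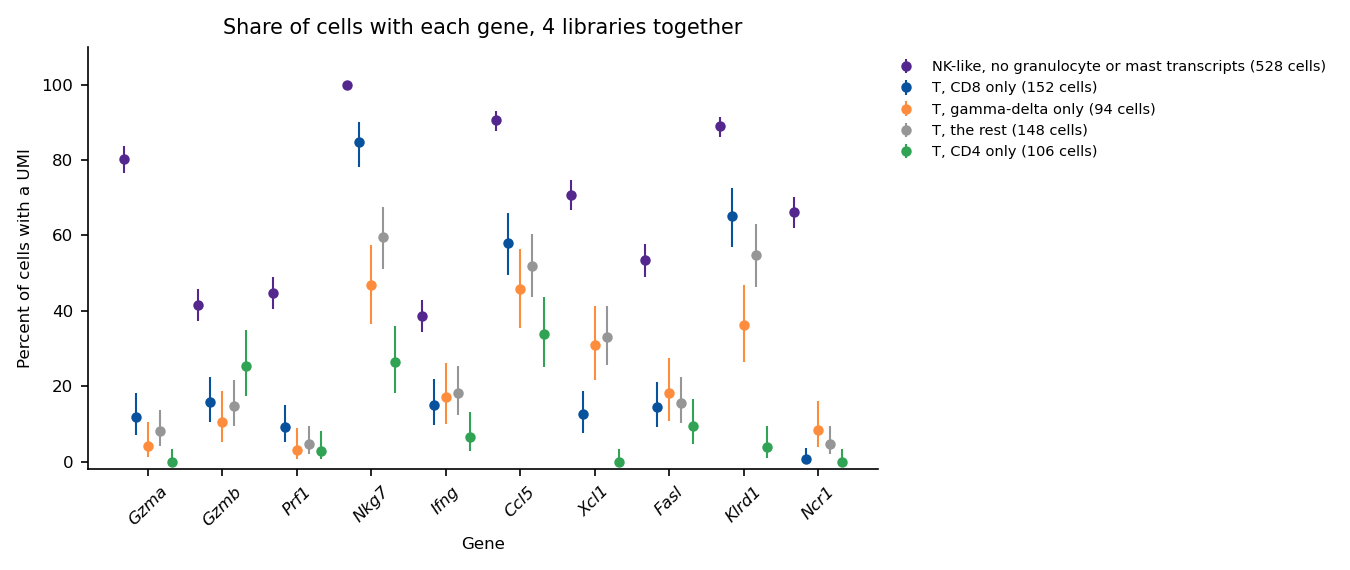
Points give the percent of cells with at least 1 UMI of each gene, 4 libraries together, in granulocyte-free NK-like cells and in 4 groups of T cells, with 95% Clopper-Pearson intervals. NK-like cells lie highest for every gene, but their 100% for Nkg7 was fixed by the gate, and T cells were not gated on Nkg7. Among T cells the CD4 cells lie lowest for every gene but Gzmb (25.5%).

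The makeup of the T cells differed between libraries. CD4 cells were 14.5% of T cells in control_4d, 13.9% in RA_4d, 13.8% in control_7d and 38.0% (30.2–46.3) in RA_7d, and CD8 cells 41.0%, 35.7%, 31.6% and 19.3%. Within CD8 cells, *Gzma* was 445 CPM in control_7d (161 UMIs in 6 cells) and 40.9 in RA_7d (9 UMIs in 2 cells), while at 4 dpf it was 64.8 in control and 70.5 in RA. In CD8 cells the ratio of RA to control for *Gzma* at 4 dpf was 1.09 (0.624–1.97). *Ccl5* in CD8 cells was 1833 CPM in control_4d, 1505 in RA_4d, 2559 in control_7d and 5377 in RA_7d. The ratio of RA to control was thus below 1 at 4 dpf, at 0.821 (0.738–0.914), and above 1 at 7 dpf, at 2.10 (1.93–2.29). In γδ cells *Ccl5* was 3.91 times (3.35–4.57) and *Nkg7* 4.73 times (3.09–7.36) the control at 7 dpf, in 19 and 39 cells.

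Outside lymphocytes, *Ccl5* and *Klrd1* of dendritic-gated cells differed between libraries. Other cells were gated by a marker list of their type, with at least 3 UMIs of it and at least 2 times those of the next list. *Ccl5* was 615 CPM in control_4d, 760 in RA_4d, 945 in control_7d and 2869 in RA_7d, 3.04 times (2.82–3.27) the control at 7 dpf. *Klrd1* was 529, 305, 420 and 218 CPM in the same order, with RA at 0.576 times (0.513–0.646) the control at 4 dpf and 0.520 times (0.437–0.616) at 7 dpf. In macrophage-gated cells *Ccl5* was 21.8, 17.8, 30.2 and 51.0 CPM. *Gzmb* in mast-gated cells was 165, 280, 621 and 446 CPM, on 6, 91, 39 and 39 UMIs. A single cell held 5, 41, 38 and 16 of these, so the value of control_7d rests on 1 of its 9 mast-gated cells.

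Transcripts of other cells were present in both lymphocyte classes. The 8 genes of a macrophage list were all detected, and summed to 652 CPM in T cells of control_4d, 269 in RA_4d, 371 in control_7d and 282 in RA_7d, and to 281 to 589 CPM in granulocyte-free NK-like cells, against 4444 to 6491 in macrophage-gated cells. The sums in T cells were highest in control_4d. Of a dendritic list, 3 or 4 of 7 genes were detected in T cells, at 57.0 to 83.5 CPM. The 5 mast genes were at 0 in T cells but for 0.760 CPM in control_7d. Neutrophil genes summed to 334 CPM in T cells of RA_4d, where 5 cells held at least 3 such UMIs, and to 9.02 to 20.5 CPM in the other 3 libraries. The part of these cells in the differences was not tested, except that leaving out lymphocytes with at least 3 macrophage UMIs gave a ratio of RA to control for the 9 genes in T cells of 1.40 (1.29–1.51) at 4 dpf and 1.06 (0.998–1.12) at 7 dpf.

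Other genes of the cytotoxic program were counted from 5 lists with 67 genes (granule content, exocytosis, death ligands and cytokines, receptors, regulators). In T cells at 4 dpf, 15 of 52 assessed genes were at least 2-fold higher in RA and 6 lower, beside 5.25% and 5.51% of all genes. At 7 dpf 6 of 54 were higher and 1, *Gzmk*, lower, beside 2.54% and 5.03%. The higher genes at 4 dpf included 8 of 21 receptors, among them *Klrc1*, *Klrc2*, *Klra7* and *Klra9*, all NK receptors, and *Il2rb*, a chain of the receptors for IL-2 and IL-15. *Il2rb* was 132 CPM in T cells of control_4d, 310 in RA_4d, 191 in control_7d and 365 in RA_7d. *Klra7* was 10.5, 78.4, 73.7 and 122 CPM, again lowest in control_4d. The 2 receptors that were lower in RA at 4 dpf were *Fcgr3* and *Itga1*, at 51.3 and 31.6 CPM in control_4d and 10.9 CPM each in RA_4d.

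In granulocyte-free NK-like cells 2 of 51 genes of these lists were higher and 2 lower at 4 dpf, beside 5.79% and 3.89% of all genes, and 1 of 55 was higher and none lower at 7 dpf, beside 5.37% and 1.83%. *Tbx21* (T-bet, a regulator of the cytotoxic program) was 307 to 355 CPM in the 4 libraries, and *Tyrobp*, a signalling adaptor of NK receptors, 1062 to 1409. In all 4 libraries 31 of 61 genes were higher in granulocyte-free NK-like than in T cells and 6 were lower, beside the 11.7% and 13.2% of all genes. By list, those higher were 15 of 25 receptors, 8 of 14 regulators, 5 of 9 granule genes, 3 of 6 ligands and 0 of 7 exocytosis genes.

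Among the granule genes with most UMIs, *Serpinb9*, an inhibitor of granzyme B, was 40.8 CPM in T cells of control_4d, 93.6 in RA_4d, 50.9 in control_7d and 90.2 in RA_7d, and 367 to 448 in granulocyte-free NK-like cells. *Srgn*, the granule proteoglycan, was 782 to 1324 CPM in T cells and 823 to 1045 in granulocyte-free NK-like cells. *Ccl4*, a chemokine, was 19.7 to 44.3 CPM in T and 174 to 292 in granulocyte-free NK-like cells.

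The genes whose level followed the mean of the 10 members most closely over 48 points, each a cell class in a library with at least 20 cells, were *Klrc2* (Pearson r = 0.987), *Klrc1* (0.978), *Klre1* (0.966), *Klra7* (0.961) and *Samd3* (0.960), out of 11885 genes. Points of a library share its depth and sequencing. Of the members themselves *Xcl1* followed that mean best (0.967) and *Klrd1* least (0.783). Each member is part of that mean, which raises its r, and *Nkg7*, on which the NK-like gate rests, is in it too.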

How the data were processed

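Single-cell libraries of fracture callus were made by the 10x Genomics 3′ protocol, with 1 library for each treatment and time. The deposited values are unnormalised UMI counts, made by the authors with Cell Ranger 7.0.1 on mm10 per the submitters' processing notes. Cells with at least 1000 UMIs, at least 500 genes and at most 15% mitochondrial UMIs were kept, a looser filter than that of the study (4000 to 50000 UMIs, 2000 to 7000 genes, at most 8%). UMIs were summed per class and library and scaled to CPM in Python 3.11.15 (scipy 1.17.1, pandas 2.3.3, numpy 2.4.6), and drawn with matplotlib 3.10.9. Other cells were gated with at least 3 UMIs of a marker list and at least 2 times the next list. Counts of genes at 2-fold or more took genes that reached 20 UMIs in the 2 libraries compared, on log2(CPM + 1). Shares of cells were also taken after thinning each cell to 1000 UMIs. Doublets were kept, and calling them with Scrublet (scanpy 1.11.5) was an alternative.

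All 10 members are named, with the 5 genes most like their mean, and the other genes come from lists. A further list of partner genes is not reported here. The members and lists were chosen with earlier results of these data known. The alternatives were other cell filters, gates, scalings, thinning depths, pseudocounts and UMI minimums, and leaving out macrophage-list cells. With 1 library per condition no test between conditions was made. The scripts were tested on simulated data. Gene positions are from GENCODE on GRCm38 and promoters from RefSeq.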

Additional observations from a re-analysis of the deposited data

Results flagged for a closer look

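In barcodes outside the cell filter, which no comparison above used, *Ccl5*, *Nkg7* and *Gzma* were above the control in RA at 4 or 7 dpf. The share of all genes that were so is not given, nor is the number of barcodes that held these UMIs. These barcodes numbered 495 in control_4d, 337 in RA_4d, 862 in control_7d and 727 in RA_7d. *Ccl5* there was 118 CPM in RA_4d (72 UMIs) and 5.22 in control_4d (5 UMIs), 22.6 times (9.25–71.7) higher, and at 7 dpf 60.8 against 19.4 CPM, 3.13 times (2.05–4.86). *Nkg7* was 42.6 CPM in RA_4d (26 UMIs) and 4.17 in control_4d (4 UMIs), a ratio of 10.2 (3.54–40.2). *Gzma* at 7 dpf was 19.1 CPM in RA (22 UMIs) and 7.43 in control (13 UMIs), a ratio of 2.57 (1.24–5.56). Other members had 0 to 9 UMIs per library there and did not all lie in that direction: *Klrd1* had 9 UMIs in control_4d and 0 in RA_4d, *Prf1*, *Ifng* and *Ncr1* 2 each and 0, and *Fasl* 5 in control_7d and 2 in RA_7d.

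Over T cells and granulocyte-free NK-like cells, some ratios of RA to control lay on opposite sides of 1, with both intervals leaving out 1. These were *Ncr1* between the 2 times, and *Xcl1* and the 9 members summed between the 2 classes at 4 dpf. The difference was not tested, and the share of all genes that met this rule is not given. The T cell subsets were not searched in this way, but some of their ratios were of this kind. *Ccl5* in CD8 cells was 0.821 times (0.738–0.914) the control at 4 dpf and 2.10 times (1.93–2.29) at 7 dpf. The 9 members summed were 0.890 times (0.811–0.979) and 1.59 times (1.47–1.71) in CD8 cells. Of the 1290 UMIs of that sum in RA_7d, 1184 were *Ccl5*. At 7 dpf *Gzma* in CD8 cells was 0.0918 times (0.0412–0.179), *Gzmb* 0.117 times (0.0369–0.287) and *Klrd1* 0.626 times (0.434–0.889) the control. *Ifng*, *Fasl*, *Xcl1* and *Prf1* had ratios above 1 with intervals that held 1. In CD4 cells the 9 members summed were 3.04 times (2.02–4.73) and 0.655 times (0.530–0.813). The CD4 sum at 4 dpf rests on 124 UMIs in RA_4d and 29 in control_4d. *Gzmb* in CD4 cells was 1.66 times (1.01–2.80) the control at 4 dpf and 0.396 times (0.271–0.580) at 7 dpf. Both *Gzmb* ratios rest on few cells. RA_4d held 56 UMIs in 3 CD4 cells, 51 of them in 1 cell, and control_4d 24 UMIs in 2 cells, 14 of them in 1. These UMIs also enter the CD4 sum at 4 dpf. At 7 dpf control_7d held 57 UMIs in 6 CD4 cells, 24 of them in 1, and RA_7d 60 UMIs in 16 cells, 12 of them in 1. The share of CD4 cells with a *Gzmb* UMI, unthinned, was 28.6% in control_7d and 28.1% in RA_7d. *Ncr1* in granulocyte-free NK-like cells was 0.613 times (0.473–0.795) the control at 4 dpf and 1.25 times (1.02–1.53) at 7 dpf. *Xcl1* at 4 dpf was 4.47 times (3.05–6.76) the control in T cells and 0.620 times (0.522–0.738) in granulocyte-free NK-like cells. The 9 members other than *Nkg7* together at 4 dpf were 1.40 times (1.31–1.50) the control in T cells and 0.924 times (0.889–0.960) in granulocyte-free NK-like cells.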

How the results depend on the processing

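The summed level of the 9 members other than *Nkg7* was recomputed under each alternative. Most UMIs of this sum in T cells were *Ccl5*, so it does not stand for each member. For RA to control at 7 dpf in T cells, *Ccl5*, *Fasl* and *Prf1* had ratios above 1 and the other members of the sum ratios below 1. NK-like here means the whole gate. The granulocyte-free cells entered only as the alternative without neutrophil- or mast-list cells, and no other cell filter, gate or scaling was run on them. With the filter and gates stated above, the T cell ratio was 1.40 for RA to control at 4 dpf, 1.13 for RA to control at 7 dpf, 1.35 for 7 to 4 dpf in control and 1.09 for 7 to 4 dpf in RA, the NK-like ratio was 0.320 for RA to control at 4 dpf, 0.988 for RA to control at 7 dpf, 1.51 for 7 to 4 dpf in control and 4.67 for 7 to 4 dpf in RA, NK-like over T was 2.21 in control_4d, 0.505 in RA_4d, 2.48 in control_7d and 2.17 in RA_7d, the percent of UMIs in both gates was 42.2 in control_4d, 69.4 in RA_4d, 65.1 in control_7d and 66.8 in RA_7d, the percent of T cells with a *Gzma*, *Gzmb* or *Prf1* UMI was 7.23 in control_4d, 8.70 in RA_4d, 10.5 in control_7d and 8.0 in RA_7d. Under the stricter cell filter of the study, the T cell ratio was 1.56 for RA to control at 4 dpf, 1.18 for 7 to 4 dpf in control and 0.890 for 7 to 4 dpf in RA, the NK-like ratio was 0.526 for RA to control at 4 dpf, 1.31 for RA to control at 7 dpf, 1.19 for 7 to 4 dpf in control and 2.96 for 7 to 4 dpf in RA, NK-like over T was 1.96 in control_4d, 0.660 in RA_4d and 1.97 in control_7d, the percent of UMIs in both gates was 38.8 in control_4d, 59.2 in control_7d and 65.5 in RA_7d. With gates of 3 UMIs, the T cell ratio was 1.26 for RA to control at 4 dpf, 1.09 for 7 to 4 dpf in control and 0.981 for 7 to 4 dpf in RA, the NK-like ratio was 0.919 for RA to control at 7 dpf and 1.62 for 7 to 4 dpf in control, NK-like over T was 1.99 in control_4d, 2.96 in control_7d and 2.40 in RA_7d, the percent of UMIs in both gates was 40.0 in control_4d, 65.6 in RA_4d, 57.3 in control_7d and 58.5 in RA_7d. With a T gate of 1 UMI, the T cell ratio was 1.43 for RA to control at 7 dpf, 1.53 for 7 to 4 dpf in control and 1.52 for 7 to 4 dpf in RA, NK-like over T was 3.68 in control_4d, 0.816 in RA_4d, 3.63 in control_7d and 2.51 in RA_7d, the percent of UMIs in both gates was 44.8 in control_4d, 73.6 in RA_4d, 66.8 in control_7d and 70.1 in RA_7d. With NK-like cells gated by *Ncr1*, *Klrb1c* or *Klre1*, the NK-like ratio was 1.99 for RA to control at 4 dpf, 1.98 for 7 to 4 dpf in control and 0.990 for 7 to 4 dpf in RA, NK-like over T was 0.953 in control_4d, 1.35 in RA_4d, 1.40 in control_7d and 1.23 in RA_7d, the percent of UMIs in both gates was 50.05 in control_4d, 69.1 in control_7d and 71.9 in RA_7d. Without Scrublet doublets, the T cell ratio was 1.21 for 7 to 4 dpf in RA, the NK-like ratio was 1.17 for RA to control at 7 dpf, 1.62 for 7 to 4 dpf in control and 5.97 for 7 to 4 dpf in RA, NK-like over T was 2.49 in RA_7d, the percent of UMIs in both gates was 67.6 in RA_7d. Without cells at 3 macrophage-list UMIs, the T cell ratio was 1.06 for RA to control at 7 dpf, 1.53 for 7 to 4 dpf in control and 1.16 for 7 to 4 dpf in RA, the NK-like ratio was 0.246 for RA to control at 4 dpf, 0.863 for RA to control at 7 dpf, 1.63 for 7 to 4 dpf in control and 5.74 for 7 to 4 dpf in RA, NK-like over T was 2.54 in control_4d, 0.446 in RA_4d and 2.71 in control_7d, the percent of UMIs in both gates was 27.4 in control_4d, 39.8 in RA_4d, 47.8 in control_7d and 42.3 in RA_7d, the percent of T cells with a *Gzma*, *Gzmb* or *Prf1* UMI was 3.16 in RA_4d. As a mean of per-cell CPM, the T cell ratio was 1.27 for RA to control at 4 dpf and 0.990 for RA to control at 7 dpf, the NK-like ratio was 0.531 for RA to control at 4 dpf, 1.02 for RA to control at 7 dpf, 1.06 for 7 to 4 dpf in control and 2.04 for 7 to 4 dpf in RA, NK-like over T was 3.58 in control_4d, 1.49 in RA_4d, 2.78 in control_7d and 2.88 in RA_7d. With TMM scaling, the NK-like ratio was 0.353 for RA to control at 4 dpf, 1.41 for 7 to 4 dpf in control and 3.67 for 7 to 4 dpf in RA, NK-like over T was 2.43 in control_4d, 0.631 in RA_4d and 2.62 in control_7d. Without cells at 3 neutrophil- or mast-list UMIs, the T cell ratio was 1.00 for RA to control at 7 dpf and 1.52 for 7 to 4 dpf in control, the NK-like ratio was 0.924 for RA to control at 4 dpf, 0.898 for 7 to 4 dpf in control and 0.952 for 7 to 4 dpf in RA, NK-like over T was 4.64 in control_4d, 2.93 in RA_4d, 2.75 in control_7d and 2.68 in RA_7d, the percent of UMIs in both gates was 66.8 in RA_4d. Without thinning, the percent of T cells with a *Gzma*, *Gzmb* or *Prf1* UMI was 15.7 in control_4d, 20.9 in RA_4d, 24.3 in control_7d and 26.7 in RA_7d. Thinned to 2000 UMIs, the percent of T cells with a *Gzma*, *Gzmb* or *Prf1* UMI was 14.8 in RA_7d. In all, 87 of these values moved beyond their interval, 11 reversed side and 82 stayed within it, and the cause was not tested. The reversed values are those on the other side of 1 from a reported ratio whose own interval excluded 1. Of counts and single genes 24 moved and 40 did not, 15 of the 24 through the minimum of 10 or 50 UMIs for a gene to be assessed. The alternatives without neutrophil- or mast-list cells and without the top cell were chosen after seeing the data. Scrublet marked 2 of 5559 cells in RA_4d, so it did not work there. Cells with at least 3 macrophage- or dendritic-list UMIs were 112 of 164, 88 of 161, 72 of 212 and 152 of 377 in the gate by *Ncr1*, *Klrb1c* or *Klre1* (control_4d, RA_4d, control_7d, RA_7d), 26 of 73, 90 of 238, 47 of 145 and 98 of 246 in the gate on *Nkg7*, and 20 of 57, 45 of 103, 42 of 134 and 91 of 234 without neutrophil- or mast-list cells. No paired analysis was possible because each condition has 1 library. For the same reason no spread between mice can be given, and 57 to 234 granulocyte-free NK-like and 83 to 152 T cells per library limit what can be seen for *Prf1*, *Ncr1* and *Fasl* in T cells.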

Other observations

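*Gzmb* in CD4 T cells went with *Foxp3*, the regulator that defines regulatory T cells. Of 39 CD4 cells with a *Foxp3* UMI, 20 also had *Gzmb* (51.3%, 34.8–67.6, 167 UMIs), against 7 of 67 without *Foxp3* (10.4%, 4.30–20.3, 30 UMIs). The cells are pooled over 4 libraries and the split was chosen after the values were seen, so this is a description.

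*Gzmc*, *Gzmd* and *Gzme*, granzymes of the same family, had most of their UMIs outside lymphocytes, and were also chosen after their values were seen. Mesenchymal-gated cells held 95.5% of 1540 *Gzme* UMIs, 97.4% of 581 *Gzmd* UMIs and 71.3% of 989 *Gzmc* UMIs. *Gzme* there was 8.06 CPM in control_4d, 0.881 in RA_4d, 7.23 in control_7d and 0.874 in RA_7d, with RA at 0.109 times (0.0788–0.148) the control at 4 dpf and 0.121 times (0.0972–0.149) at 7 dpf. *Gzmd* was 0.0479 times (0.0204–0.0959) and 0.0253 times (0.0115–0.0486) the control. *Gzmc* was 0.829 times (0.623–1.10) at 4 dpf, where the interval held 1, and 0.199 times (0.156–0.251) at 7 dpf. *Gzme* was counted in 112 mesenchymal-gated cells of control_4d, 32 of RA_4d, 215 of control_7d and 32 of RA_7d. How reads were divided among these related genes was not checked, so their counts are uncertain.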
